A study of Mus musculus with 24 samples.

Results

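The genes described here are 10 markers of the fibroblasts of the brain's coverings: Col1a1, Col1a2, Col3a1, Dcn, Lum, Ogn, Igf2, Slc6a13, Aldh1a2 and Slc13a4. They were taken by symbol from the table of RNA-Seq counts, matched by Ensembl identifier on GRCm38, and all 10 were found among its 55385 genes. Their levels were read in the hippocampus (HIP) and the entorhinal cortex (EC) of 6 Ts65Dn male mice and 6 wt male littermates, 24 libraries in all, with both regions taken from each of the 12 mice. Mice were 5 to 6 months old and had an F1 B6C3B background, whose C3B parent line is C3H/HeN made congenic at the Pde6b locus for a BALB/c allele. Ts65Dn mice carry a minichromosome that gives an additional copy of the distal part of mouse chromosome 16, joined to the proximal part of chromosome 17, whose genes have no counterpart on human chromosome 21, and wt littermates carry no such chromosome. Neither genotype received a treatment, and only males were sequenced, so the values hold for males.

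The meninges wrap the brain in layers of dura, arachnoid and pia, and their fibroblasts lay down most of the fibrillar collagen found around the brain. These cells secrete collagens type I and III and small leucine-rich proteoglycans, which bind collagen fibrils and set their thickness and spacing. They also carry transporters for solutes that pass between blood, cerebrospinal fluid and brain, and they are a source of retinoic acid and insulin-like growth factor 2. A piece of HIP or EC cut from a brain holds pia on its outer surface, and the HIP can carry along choroid plexus, an epithelium over a fibroblast stroma that lies in the neighbouring ventricles.

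The 3 collagen genes encode chains of the main fibrils: Col1a1 (chromosome 11, 94936224 to 94953042, plus strand) and Col1a2 (chromosome 6, 4504814 to 4541544, plus strand) those of type I, and Col3a1 (chromosome 1, 45311538 to 45349706, plus strand) that of type III. Dcn (decorin, chromosome 10, 97479609 to 97518143), Lum (lumican, chromosome 10, 97565128 to 97572703) and Ogn (osteoglycin, chromosome 13, 49608046 to 49624501), all on the plus strand, encode proteoglycans. Dcn and Lum are neighbours, with 46985 bases between the end of the former and the start of the latter. Igf2 (chromosome 7, 142650766 to 142666816, minus strand) is an imprinted gene that encodes a growth factor. Slc6a13 (chromosome 6, 121300227 to 121337733, plus strand) encodes the GABA and taurine transporter GAT2, and Slc13a4 (chromosome 6, 35267957 to 35308131, minus strand) a sodium-dependent sulphate transporter. Aldh1a2 (chromosome 9, 71215789 to 71296243, plus strand) encodes an enzyme that makes retinoic acid from retinaldehyde. None of the 10 lies in the part of chromosome 16 or 17 that Ts65Dn carries in excess.

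The levels of all 10 genes moved together across libraries, as described further on, and the stretches before the start sites of 4 of them are shown as examples. They are 250 bases long, end just before the RefSeq start site and run 5′ to 3′ along the gene's strand on GRCm38.p6. Capitals mark the letters TATAAA of the TATA box, the letters CCAAT of the CCAAT box and the letters GGGCGG of the GC box, which were searched for on both strands, and in Ogn the matches on the 2 strands overlap.
Col3a1, chr1:45311288-45311537, plus strand: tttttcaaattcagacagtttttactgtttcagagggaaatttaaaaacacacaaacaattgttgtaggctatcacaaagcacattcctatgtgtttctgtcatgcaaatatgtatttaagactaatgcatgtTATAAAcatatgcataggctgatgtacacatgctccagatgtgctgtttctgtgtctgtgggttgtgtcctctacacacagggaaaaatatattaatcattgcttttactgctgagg
Ogn, chr13:49607765-49608014, plus strand: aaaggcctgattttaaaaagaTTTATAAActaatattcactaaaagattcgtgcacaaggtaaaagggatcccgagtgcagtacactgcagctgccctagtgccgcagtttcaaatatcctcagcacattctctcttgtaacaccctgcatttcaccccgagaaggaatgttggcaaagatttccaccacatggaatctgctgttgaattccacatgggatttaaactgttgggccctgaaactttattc
Aldh1a2, chr9:71215539-71215788, plus strand: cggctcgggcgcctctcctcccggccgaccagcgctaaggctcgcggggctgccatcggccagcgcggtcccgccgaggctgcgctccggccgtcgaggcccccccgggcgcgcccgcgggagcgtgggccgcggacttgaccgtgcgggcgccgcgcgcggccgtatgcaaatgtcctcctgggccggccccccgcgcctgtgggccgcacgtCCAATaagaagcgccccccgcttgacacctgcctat
Slc13a4, chr6:35308127-35308376, minus strand: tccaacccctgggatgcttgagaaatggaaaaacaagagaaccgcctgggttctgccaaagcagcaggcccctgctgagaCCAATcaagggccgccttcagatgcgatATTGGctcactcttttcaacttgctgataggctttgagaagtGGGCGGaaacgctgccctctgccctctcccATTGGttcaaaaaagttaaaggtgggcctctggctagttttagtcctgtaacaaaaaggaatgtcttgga
The stretches of Col3a1 and Ogn hold TATAAA, which 12.97% of 27025 mouse stretches of this kind hold. Those of Aldh1a2 and Slc13a4 hold CCAAT, found in 34.46% of all, and that of Slc13a4 also holds GGGCGG, found in 32.94%. No motif was present in all 4. The RefSeq table held an entry for 7 of the 10 genes, and Col1a1, Dcn and Lum had none. Col1a2, Igf2 and Slc6a13 had entries that are not shown. None of these entries holds TATAAA, while CCAAT and GGGCGG are each found among the entries of all 3 genes. Whether any match acts in its promoter was not tested.

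The libraries held between 23128589 and 40476492 counts on genes. Of these, the 10 genes took from 0.00522% to 0.0230%, with between 14 and 2847 counts for any of them in a library. Levels are given as CPM, counts scaled to a common library total, after TMM scaling, which corrects library sizes for differences in composition. The labels were checked on 20 genes of the triplicated part of chromosome 16, with none from chromosome 17. Their median ratio to the mean of wt libraries was 1.45 to 1.52 in 5 Ts65Dn HIP libraries. In 5 Ts65Dn EC libraries it was 1.48 to 1.52. The mouse labelled Ts65Dn replicate 3 went against its label, its medians being 1.02 (HIP) and 0.955 (EC), where wt libraries ranged from 0.983 to 1.02 and from 0.975 to 1.02. It kept its label, and log2 fold changes of the 10 genes between genotypes, and those between regions in Ts65Dn, are given with and without it. Hippocampal markers checked the dissection: 8 of 9 were called higher in the HIP than in the EC of wt mice and 1, Wfs1, lower, while 5 of 8 cortical markers were called lower and 2, Etv1 and Tshz2, higher. Of all genes tested between these groups, 61.3% were called and 31% were called higher in the HIP. Per length of exon, and over both genotypes, Dcn had the highest level in each region, with 6.45 ± 4.14 CPM per kb in the HIP and 5.12 ± 1.54 CPM per kb in the EC (SD, n = 12). In the HIP it was followed by Ogn, Lum, Slc13a4, Slc6a13, Aldh1a2, Col1a2, Col1a1, Col3a1 and Igf2, the last at 0.315 ± 0.240 CPM per kb. Between neighbours in that order, the difference in mean level was larger than the larger SD only from Aldh1a2 to Col1a2 and from Col1a1 to Col3a1. In the EC the order was Dcn, Slc6a13, Aldh1a2, Ogn, Slc13a4, Lum, Col1a2, Col1a1, Col3a1 and Igf2, the last at 0.185 ± 0.0889 CPM per kb, and only the last 2 steps, from Col1a1 to Col3a1 and from Col3a1 to Igf2, were larger than the SD.

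**Figure D1:**
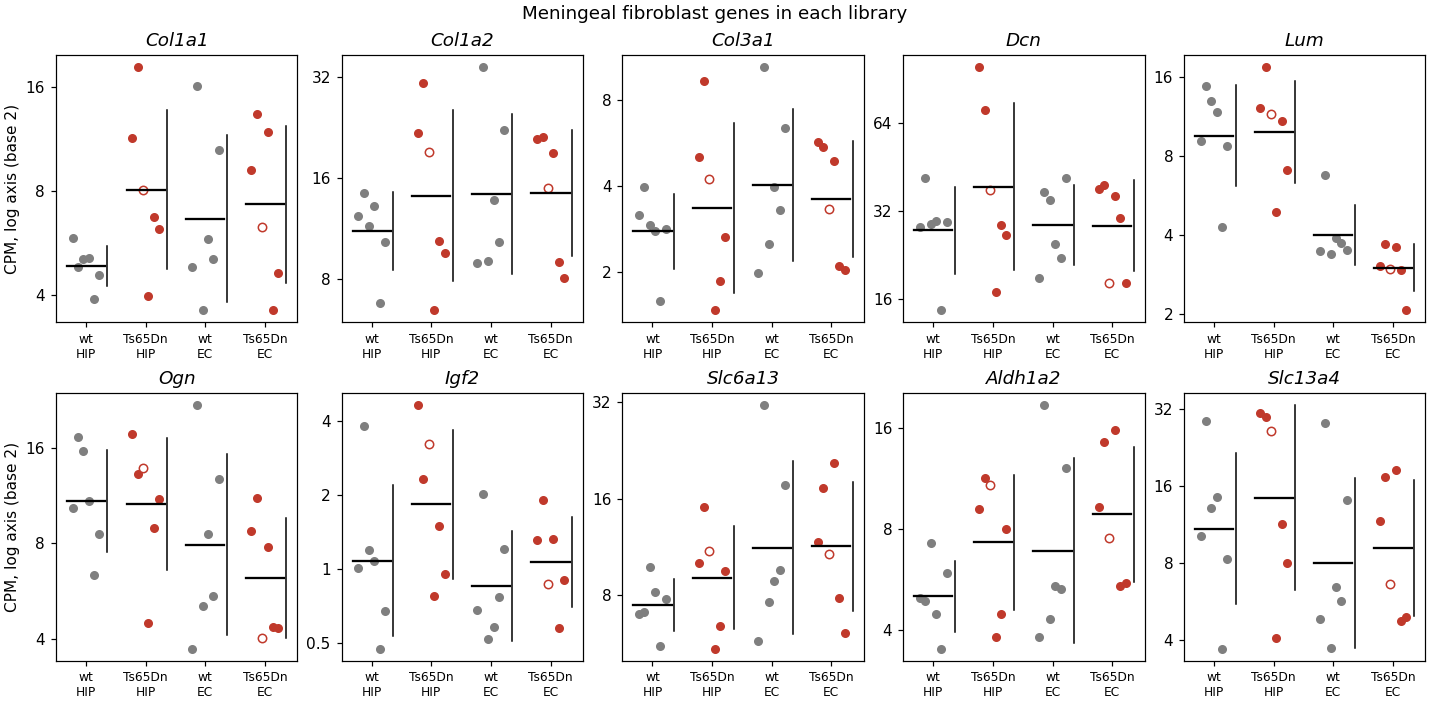
Level of each gene (CPM after TMM scaling, log axis) in every library, in replicate order from left to right within a group. Lines are means and bars 1 SD of the log2 values, and open circles are the mouse labelled Ts65Dn replicate 3. The genotype groups overlap for each gene in both regions, and Lum lies lower in the EC than in the HIP.

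Genotype was compared first within the HIP, to ask whether the levels of these genes differed between Ts65Dn and wt mice. None of the 10 passed an adjusted p-value under 0.05 in edgeR's quasi-likelihood test, where 1.04% of the 17355 genes tested passed. At an unadjusted p under 0.05 there were 2, Col1a1 and Aldh1a2, where 14.8% of all genes tested were. DESeq2 called 1 of the 10, Col1a1, where it called 3.81% of all genes. The fold change was above 0 on the log2 scale for all 10, Ogn turning to -0.0024 in DESeq2, and lay between 0.00 for Ogn and 0.90 for Col1a1, with a median of 0.52 against 0.00 over all genes tested. Without the mouse labelled Ts65Dn replicate 3 none was called, 1 had an unadjusted p under 0.05, the median was 0.49 and 9 of 10 fold changes were above 0, with Ogn at -0.06. These genes varied together between libraries, so the shared sign is not 10 separate observations. The groups of libraries overlapped for each of the 10, where 1.67% of all genes tested had groups that did not overlap.

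Among the collagens, Col1a1 in the wt HIP had a lowest, median and highest level of 3.90, 4.97 and 5.86 CPM, against 3.98, 7.42 and 18.3 CPM in the Ts65Dn HIP. The wt libraries were close together, and 5 of 6 Ts65Dn libraries lay above all of them, with replicate 4 as the exception, or 4 of 5 without the mouse labelled replicate 3. The log2 fold change was 0.90 ± 0.29 (SE, n = 6 per group; unadjusted p = 0.00732 and adjusted p = 0.158 in edgeR), and without the mouse labelled Ts65Dn replicate 3 it was 0.93 with an adjusted p of 0.146. Over the fits that left out each mouse it ran from 0.57, without Ts65Dn replicate 2, to 1.05. Col1a2 had 6.81, 11.9 and 14.4 CPM in wt and 6.48, 14.7 and 30.7 CPM in Ts65Dn. Col3a1 had 1.58, 2.88 and 3.96 CPM in wt and 1.47, 3.43 and 9.34 CPM in Ts65Dn. For both genes 3 Ts65Dn libraries, the one labelled replicate 3 among them, lay above all wt libraries and 1 below them. The log2 fold changes were 0.51 ± 0.32 and 0.52 ± 0.38 (SE; adjusted p = 0.489 and 0.577), or 0.46 and 0.51 without replicate 3 and 0.24 and 0.089 without Ts65Dn replicate 2.

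Of the proteoglycans in the HIP, Dcn had a lowest, median and highest level of 14.6, 29.0 and 41.4 CPM in wt and 16.9, 33.3 and 99.7 CPM in Ts65Dn. Replicates 1 and 2 of Ts65Dn lay above all wt libraries while the others lay among them, and the log2 fold change was 0.70 ± 0.37 (SE; adjusted p = 0.414), or 0.75 without replicate 3. Lum had 4.28, 10.5 and 14.8 CPM in wt and 4.88, 11.3 and 17.5 CPM in Ts65Dn. Ogn had 6.34, 10.6 and 17.3 CPM in wt and 4.49, 12.1 and 17.6 CPM in Ts65Dn. The ranges of Lum and Ogn nearly coincided between genotypes, with log2 fold changes of 0.06 ± 0.30 and 0.00 ± 0.29 (SE), or 0.03 and -0.06 without Ts65Dn replicate 3.

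Among the transporters, Slc6a13 in the HIP had a lowest, median and highest level of 5.56, 7.42 and 9.78 CPM in wt and 5.45, 9.77 and 15.0 CPM in Ts65Dn, a log2 fold change of 0.34 ± 0.21 (SE; adjusted p = 0.488) that was 0.30 without replicate 3. Slc13a4 had 3.72, 11.7 and 28.7 CPM in wt and 4.11, 18.8 and 30.9 CPM in Ts65Dn, a log2 fold change of 0.48 ± 0.50 (adjusted p = 0.70), or 0.36 without replicate 3. The highest library of Slc13a4 was 7.73 times the lowest in wt and 7.53 times in Ts65Dn. Aldh1a2 had 3.51, 4.91 and 7.23 CPM in wt and 3.80, 8.55 and 11.3 CPM in Ts65Dn. For this gene 4 of 6 Ts65Dn libraries (3 of 5 without replicate 3) lay above all wt libraries and the log2 fold change was 0.62 ± 0.26 (SE; unadjusted p = 0.0311 and adjusted p = 0.285). Without the mouse labelled Ts65Dn replicate 3 it was 0.51, with an unadjusted p of 0.0763 in the same edgeR test. Igf2 had 0.476, 1.05 and 3.82 CPM in wt and 0.778, 1.91 and 4.62 CPM in Ts65Dn, a log2 fold change of 0.67 ± 0.52 (SE; adjusted p = 0.591). It was 0.53 without Ts65Dn replicate 3 and 1.34 without wt replicate 2, whose library stood apart (adjusted p = 0.205 in edgeR).

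The level of Igf2 is uncertain. On its own strand 62.8% of its exon bases are shared with the overlapping gene models Gm49394 and Mir483, Igf2os lies on the other strand, and Gm49394 was listed at 0 counts in all 24 libraries. How the counting treated reads that fit both gene models is not given in the sources used here, so reads in the shared exons may be missing from the Igf2 counts of 14 to 161 per library. Col3a1 shares 1.44% of its exon bases with a gene model on its strand, and the other 8 genes share none.

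A pair of libraries stood at the low end of the HIP. The wt replicate 5 library was the lowest of its group for all 10 genes, and the Ts65Dn replicate 4 library was the lowest of its group for all 10. Without the mouse labelled Ts65Dn replicate 4, 5 of the genes reached an unadjusted p under 0.05 in edgeR (Col1a1, Col1a2, Dcn, Slc6a13 and Aldh1a2), where 13.4% of all genes did, and still none an adjusted p under 0.05. Leaving out Ts65Dn replicate 2 left 1 gene at an unadjusted p under 0.05 and turned 2 of the 10 fold changes below 0. The median log2 fold change of the 10 ranged from 0.27 to 0.69 over the fits that left out each mouse in turn. Summed over the 10 genes, the level was 96.8 ± 29.5 CPM in the wt HIP and 137 ± 71.5 CPM in the Ts65Dn HIP (SD, n = 6), and it was 135 CPM in Ts65Dn without replicate 3. The Ts65Dn sums ran from 52.3 to 222 CPM and enclosed nearly all of the wt range of 50.8 to 141 CPM. In bulk tissue, fewer cells of a type and less RNA per cell cannot be told apart, so a summed level speaks for neither.

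Marker lists of other cells were read beside these values. Of 25 other meningeal and arachnoid genes tested in the HIP, 0 were called, 9 had an unadjusted p under 0.05 against 14.8% of all genes, and the median log2 fold change was 0.40. The summed level of the 26 genes of that list ran from 557 to 753 CPM in wt and from 618 to 1199 CPM in Ts65Dn. Among them were Fmod (fibromodulin, another proteoglycan), with a log2 fold change of 1.21 ± 0.31 (adjusted p = 0.0854), and Ptgds (prostaglandin D2 synthase), with 0.66 ± 0.17 (adjusted p = 0.0896). The 13 choroid plexus markers include Clic6 and Kcne2, which are triplicated in Ts65Dn mice, and were not read without them. The 13 had a median log2 fold change of 0.36, with 0 called and 0 at an unadjusted p under 0.05. Their summed level ran from 107 to 5176 CPM in wt and from 65.6 to 5474 CPM in Ts65Dn, and none of them was at 0 in every library of a group. The 10 endothelial and 11 mural markers had medians of 0.13 and 0.11, and the 5 border macrophage markers tested had 0.52, with 0 called in each list. Without the mouse labelled Ts65Dn replicate 3, the medians were 0.36 for the other meningeal genes (5 at an unadjusted p under 0.05, 0 called) and 0.20 for the choroid plexus markers. The part of these cells in the genotype values of the 10 genes was not tested.

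In the EC the question was the same, and again none of the 10 was called, where 2.5% of 17049 genes tested were. At an unadjusted p under 0.05 there was 1, Lum, where 19% of all genes tested were. DESeq2 called 0 of the 10, where it called 6.69% of all genes. The log2 fold change was above 0 for 4 genes and below 0 for 6, with a median of -0.04. With the mouse labelled Ts65Dn replicate 3 left out, none was called and the median was 0.02. The groups overlapped for all 10 genes, where 2.46% of all genes tested had groups that did not.

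Lum had a lowest, median and highest level of 3.38, 3.62 and 6.78 CPM in the wt EC and 2.06, 3.0 and 3.68 CPM in the Ts65Dn EC. All wt libraries but replicate 2 lay within 3.38 to 3.89 CPM, and 4 of 6 Ts65Dn libraries (3 of 5 without replicate 3) lay below all wt libraries. The log2 fold change was -0.45 ± 0.19 (SE; unadjusted p = 0.0310 and adjusted p = 0.211 in edgeR), and -0.44 without the mouse labelled Ts65Dn replicate 3. Without wt replicate 2 it was -0.25, with an unadjusted p of 0.101 in edgeR. Ogn had 3.73, 7.02 and 21.7 CPM in wt and 4.01, 6.08 and 11.1 CPM in Ts65Dn, a log2 fold change of -0.51 ± 0.39 (adjusted p = 0.530) that was -0.40 without Ts65Dn replicate 3 and -0.08 without wt replicate 2. Dcn, at 18.9, 29.7 and 41.5 CPM in wt and 18.1, 33.1 and 39.2 CPM in Ts65Dn, had a fold change of -0.00 ± 0.23, or 0.11 without replicate 3. Its ranges nearly coincided.

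The collagens in the EC ran from 3.63 to 16.1 CPM (Col1a1), from 8.93 to 34.3 CPM (Col1a2) and from 1.98 to 10.4 CPM (Col3a1) in wt. In Ts65Dn they ran from 3.63 to 13.4 CPM, from 8.08 to 21.3 CPM and from 2.03 to 5.68 CPM. Their log2 fold changes of 0.09 ± 0.38, -0.09 ± 0.34 and -0.28 ± 0.38 (SE) were smaller than their errors, and were 0.16, -0.07 and -0.24 without Ts65Dn replicate 3. Slc6a13 ran from 5.74 to 31.2 CPM in wt and from 6.09 to 20.7 CPM in Ts65Dn. Slc13a4 ran from 3.74 to 28.4 CPM and from 4.78 to 18.5 CPM, Aldh1a2 from 3.80 to 18.7 CPM and from 5.4 to 15.8 CPM, and Igf2 from 0.522 to 2.03 CPM and from 0.577 to 1.91 CPM. These 4 genes had log2 fold changes between -0.12 and 0.25, and between -0.08 and 0.32 without replicate 3. The wt replicate 2 library was the highest of its group for 9 of the 10 genes, Dcn being the exception, and without this mouse the median log2 fold change of the 10 was 0.30 in place of -0.04. The summed level was 106 ± 57.7 CPM in wt and 101 ± 38.2 CPM in Ts65Dn (SD, n = 6), or 106 CPM in Ts65Dn without replicate 3. Of the 26 other meningeal genes 0 were called in the EC, and their median log2 fold change was -0.03. The 8 choroid plexus markers tested had a median of -0.01, with 0 called and 3 at an unadjusted p under 0.05. Their list holds the triplicated genes Clic6 and Kcne2. The endothelial, mural and border macrophage markers had medians of -0.00, -0.04 and -0.06 with 0 called. The 5 erythroid markers all had fold changes below 0 in the EC, with a median of -0.73, 0 called and 3 at an unadjusted p under 0.05, and their summed level ran from 139 to 544 CPM in wt and from 104 to 299.9 CPM in Ts65Dn. Of 7 striatal markers 1, Drd2, was called higher in the Ts65Dn EC (1.56, adjusted p = 0.0254 in edgeR). Their part in the genotype values of the 10 genes was not tested.

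**Figure D2:**
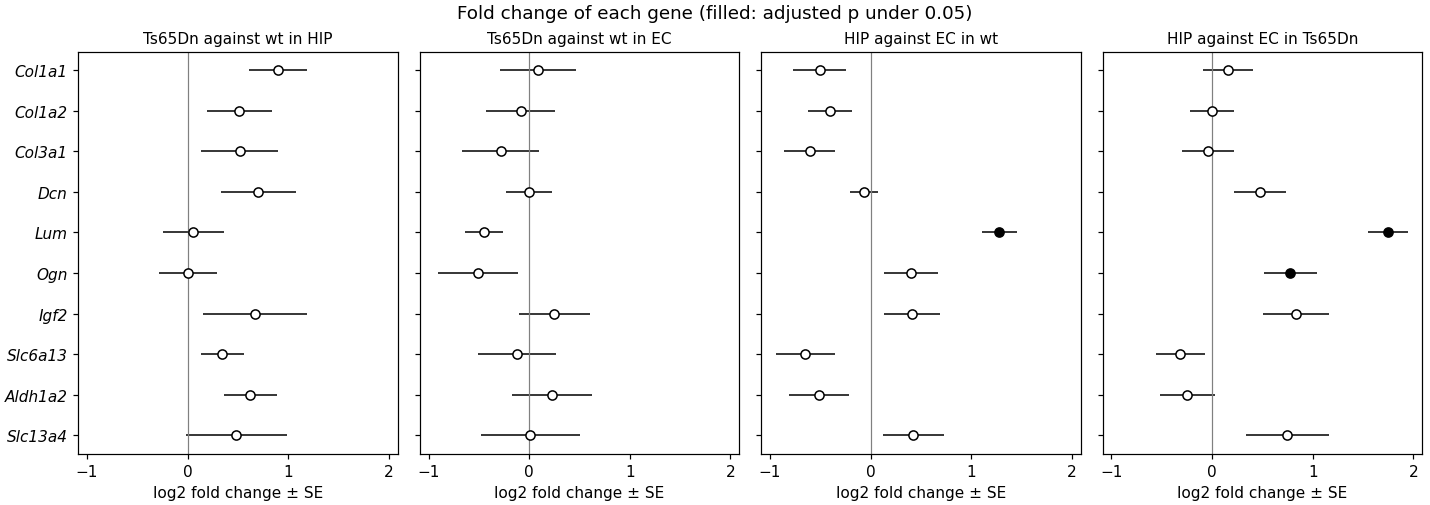
Log2 fold change and its standard error from edgeR for each gene in 4 comparisons, with filled circles where the adjusted p-value was under 0.05. Filled circles appear for Lum in both HIP against EC comparisons (1.28 in wt and 1.75 in Ts65Dn) and for Ogn in that of Ts65Dn (0.78).

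Regions were then compared within each genotype, with a term for each mouse, to ask how the HIP and the EC of the same animals differ in these genes. In wt mice 1 of the 10, Lum, was called, where 61.3% of the 17196 genes tested were called and 31% were called higher in the HIP. In Ts65Dn mice 2 were called, Lum and Ogn, both higher in the HIP, where 52.3% of 17314 genes were called and 26.6% were called higher. The counts of 1 and 2 in 10 lie below these shares. With no filter on low counts 8 and 5 of the 10 were called, where 32.5% of 34373 and 27.6% of 34473 genes were. Those 2 shares take in the genes of low count that the filter removes, and all 10 genes pass the filter. They cannot be set beside the filtered shares. The median log2 difference of the 10, HIP over EC, was -0.24 in wt and 0.32 in Ts65Dn, against 0.00 over all genes in each, and 0.24 in Ts65Dn without replicate 3, where 1 gene, Lum, was called.

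Lum was higher in the HIP in 6 of 6 wt mice and 6 of 6 Ts65Dn mice. The log2 difference was 1.28 ± 0.18 in wt (SE; adjusted p = 0.000115) and 1.75 ± 0.20 in Ts65Dn (adjusted p = 4.43e-05), and 1.70 in Ts65Dn without replicate 3. It was called in all 6 fits that left out a mouse in each genotype, with differences of 1.14 to 1.47 in wt and 1.63 to 1.99 in Ts65Dn. Per mouse, the difference in log2 CPM ran from 0.19 to 1.92 in wt and from 0.43 to 2.23 in Ts65Dn. The other 9 genes had mice on either side of 0 in both genotypes.

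Ogn was higher in the HIP in 4 of 6 wt mice and 5 of 6 Ts65Dn mice, with log2 differences of 0.40 ± 0.27 (SE; adjusted p = 0.222) and 0.78 ± 0.26 (adjusted p = 0.0297). The call in Ts65Dn was held in 2 of the 6 fits that left out a mouse, and without the mouse labelled replicate 3 the difference was 0.59 with an adjusted p of 0.0859. It was also lost in the fit without a term for the mouse and in DESeq2 (adjusted p = 0.0574), which called Igf2 in its place (adjusted p = 0.0352). Igf2 was also called by edgeR when genes needed at least 10 counts in every library (adjusted p = 0.0478). Igf2 and Slc13a4 had differences of 0.83 ± 0.33 (adjusted p = 0.0537) and 0.75 ± 0.41 (adjusted p = 0.151) in Ts65Dn, or 0.62 and 0.49 without replicate 3, and of 0.41 ± 0.28 and 0.42 ± 0.30 in wt. Dcn had 0.48 ± 0.26 in Ts65Dn, or 0.36 without replicate 3, and -0.07 ± 0.14 in wt.

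The collagens, Slc6a13 and Aldh1a2 had levels in the wt HIP that were below those in the EC without passing the test. Their log2 differences in wt were -0.51 ± 0.27 for Col1a1, -0.40 ± 0.22 for Col1a2, -0.61 ± 0.25 for Col3a1, -0.65 ± 0.29 for Slc6a13 and -0.51 ± 0.30 for Aldh1a2 (SE), with adjusted p-values between 0.0606 and 0.164. Each was lower in the HIP in 4 of 6 wt mice. In Ts65Dn the same genes had 0.16 ± 0.25, 0.00 ± 0.22 (-0.0016 with DESeq2 size factors), -0.04 ± 0.26, -0.32 ± 0.25 and -0.25 ± 0.27. Without replicate 3 they had 0.12, -0.07, -0.11, -0.39 and -0.41. Single mice moved these counts. Without wt replicate 3, 5 genes were called in wt (Lum, and lower in the HIP Col1a1, Col3a1, Slc6a13 and Aldh1a2), where 56.2% of all genes were, and without wt replicate 1 there were 3, Lum with Col1a2 and Col3a1 lower, against 58.5%. Without wt replicate 2, in contrast, Lum alone was called, against 57.4%, and the wt differences were -0.22 for Col1a1, -0.20 for Col1a2, -0.40 for Col3a1, -0.30 for Slc6a13 and -0.17 for Aldh1a2. Without Ts65Dn replicate 4, 7 were called in Ts65Dn, against 48.8% of all genes, all higher in the HIP: Lum, Ogn, Igf2, Slc13a4, Dcn, Col1a1 and Col1a2.

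Whether the genotype difference depended on the region was tested as an interaction over all 24 libraries, with a term for each mouse. None of the 10 was called, where 0 of 18109 genes (0%) were called and 742 genes (4.1%) had an unadjusted p under 0.05. DESeq2 called 0 of the 10, and 0 of them had an unadjusted p under 0.05 in edgeR. The interaction estimates ran from 0.26 for Aldh1a2 to 0.66 ± 0.41 for Col1a1 (SE), with a median of 0.42, or 0.29 without the mouse labelled Ts65Dn replicate 3, when they ran from 0.06 for Slc13a4 to 0.63 for Col1a1. Without the mouse labelled Ts65Dn replicate 4, 5 genes (Col1a1, Col1a2, Col3a1, Dcn and Lum) had an unadjusted p under 0.05, against 5.01% of all genes, and none was called.

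Markers of other cells were compared between the regions in the same fits. All 13 choroid plexus markers were higher in the wt HIP, with a median log2 difference of 4.87, among them Ttr (transthyretin) at 6.84 and Cldn2 (a claudin of leaky epithelia) at 6.13. In the EC their summed level was between 12.5 and 56.7 CPM. The 10 endothelial markers were all lower in the wt HIP, with a median of -0.40. All 6 border macrophage markers tested were lower, 5 of them called, with a median of -0.92. Of 25 other meningeal and arachnoid genes tested in wt, 5 were called higher in the HIP and 8 lower. In that comparison 61.3% of all genes tested were called and 31% were called higher in the HIP. The genes of this list with the largest differences were Zic1 (a transcription factor), 1.86 higher, and Fmod, Slc22a6 (an organic anion transporter) and Dpp4 (a surface peptidase), with -1.72, -1.64 and -1.54. The part of the choroid plexus in the higher HIP level of Lum and Ogn was not tested.

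Genes that act with the 10 in the same pathways were read from lists chosen for this description. Of all genes tested in wt, 61.3% were called between the regions and 31% were called higher in the HIP. The counts below were not tested against those shares. Of 24 genes for making and cross-linking collagen tested in wt, 11 were called higher in the HIP and 2 lower. The largest differences were those of Pcolce2, which aids procollagen cleavage (2.05), Plod2 (1.35) and P3h3 (1.13), which act in the hydroxylation of collagen, and Loxl1, a cross-linking oxidase (0.92). Of 14 other fibrillar and associated collagens 7 were called higher and 2 lower, Col2a1 (2.17), Col8a2 (2.03), Col11a1 (1.78) and Col5a3 (1.62) with the largest differences. Of 9 other small leucine-rich proteoglycans 3 were higher and 4 lower, with Epyc (epiphycan) at 1.59 and Optc (opticin), Fmod and Podn (podocan) at -2.14, -1.72 and -1.23. In the insulin-like growth factor list 4 of 12 were higher and 5 lower, with Pappa, a protease of IGF-binding proteins, at 4.07 and Igfbp6, a binding protein with a preference for IGF2, at -2.45. In the retinoid list 5 of 16 were higher and 7 lower, with Stra6, a retinol transporter, at 2.16 and Rbp4, a retinol carrier, at -1.78. Of 6 relatives of the GABA and sulphate transporters 3 were called, all lower in the HIP, among them Slc13a5, a citrate transporter, at -1.46.

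Between genotypes these 6 lists gave 1 call each for HIP and EC, out of 82 and 79 list genes tested, where 1.04% and 2.5% of all genes were called. Counts of 1 are near or below what those shares give. Slc13a3, a dicarboxylate transporter, was higher in the Ts65Dn HIP, with a log2 fold change of 0.53 ± 0.10 (SE; adjusted p = 0.0290 in edgeR), and Igfbp3, a binding protein for insulin-like growth factors, was higher in the Ts65Dn EC, at 0.48 ± 0.10 (adjusted p = 0.0247). Both were also called without the mouse labelled Ts65Dn replicate 3, at 0.50 and 0.51. In the HIP the median log2 fold changes were 0.16 for collagen making, 0.15 for other collagens, 0.22 for other proteoglycans, 0.00 for the insulin-like growth factor list, 0.16 for the retinoid list and 0.09 for the transporter relatives. In the EC they were 0.09, -0.04, -0.02, 0.02, 0.14 and 0.09.

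The 10 genes varied more between mice than most genes did. The SD of log2 CPM within a genotype was between 0.42 for Slc6a13 and 1.08 for Slc13a4 in the HIP, against a median of 0.169 over all genes tested, which put the 10 at the 85.6th to 98.7th percentile. In the EC it was between 0.338 for Lum, at the 79.4th percentile, and 0.992 for Slc13a4, at the 98.9th, against a median of 0.173. The wt HIP was the tightest group for Col1a1, whose highest library was 1.5 times its lowest, compared with 4.61 times in the Ts65Dn HIP.

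They also varied together. Within a region, across the 12 libraries of both genotypes, all 45 pairs of genes had a positive Pearson's r of log2 CPM, from 0.53 to 0.96 in the HIP (median 0.80) and from 0.44 to 0.99 in the EC (median 0.86). These are descriptions over libraries that share mice and scaling. The closest pair in the HIP was Col1a2 with Col3a1 (0.96), followed by Slc6a13 with Aldh1a2 (0.94). In the EC it was Col1a1 with Slc13a4 (0.99), followed by Col1a2 with Col3a1 (0.98). In the EC, Lum and Dcn followed the rest least, with an r of 0.64 and 0.68 to the mean of the other 9 genes, where the other 8 had 0.86 or more. The neighbouring genes Dcn and Lum had an r of 0.44 with each other in the EC and 0.79 in the HIP. Library depth moved little with the summed level, with an r of 0.28 (HIP) and 0.14 (EC).

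**Figure D3:**
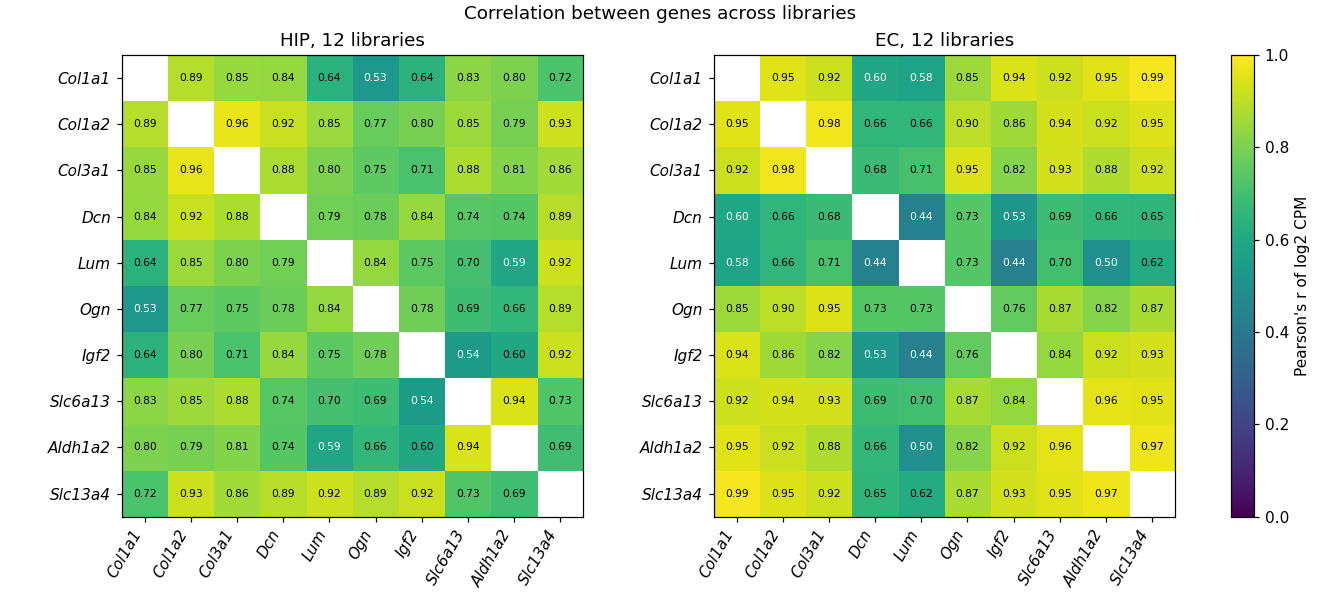
Pearson's r of log2 CPM between each pair of the 10 genes over 12 HIP libraries (left) and 12 EC libraries (right), with both genotypes together. All 45 pairs are positive in both regions, and the row and column of Lum and of Dcn in the EC are the lowest.

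The HIP and the EC of the same mouse were less alike. The log2 summed level of the 10 genes had a Pearson's r of 0.32 and a Spearman's rho of 0.35 between the regions over 12 mice, and an r of 0.084 without the 2 mice farthest from the HIP median. Gene by gene, r ran from -0.04 for Slc6a13 to 0.44 for Igf2. With the 2 mice farthest from each gene's own HIP median left out, r ran from -0.43 for Col1a1 to 0.62 for Lum. The Ts65Dn replicate 4 mouse had the lowest Ts65Dn HIP level of every gene and the highest Ts65Dn EC level of Slc6a13, Aldh1a2 and Slc13a4. Its Slc13a4 level was 4.11 CPM in the HIP and 18.5 CPM in the EC. The wt replicate 2 mouse was high in both regions, with 28.7 and 28.4 CPM of Slc13a4.

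**Figure D4:**
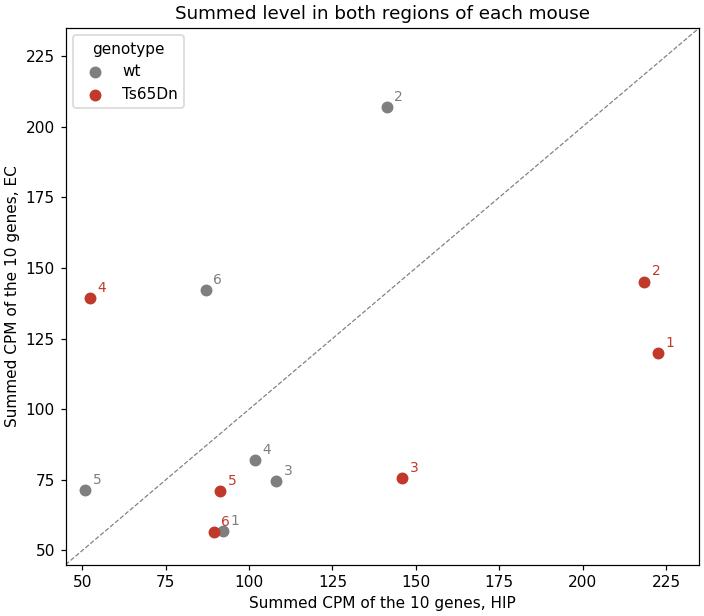
Summed CPM of the 10 genes in the HIP (x axis) and the EC (y axis) of each mouse, numbered by replicate, with the dashed line at equal levels. Ts65Dn replicates 1 and 2 lie highest in the HIP, at up to 222 CPM, wt replicate 2 lies highest in the EC at 207 CPM, and Ts65Dn replicate 4 is low in the HIP and high in the EC.

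The genes whose pattern was most like that of the 10 were found by the correlation of log2 CPM, centred within each region, with the mean scaled level of the 10 over all 24 libraries. Among 14370 genes with a mean of at least 1 CPM in both regions the median r was -0.03, and 17 were over 0.9. The 10 highest were Slc6a20a (0.94), a proline transporter, Anpep (0.93), an aminopeptidase, Fmod (0.93), Cped1 (0.93), Timp3 (0.93), an inhibitor of metalloproteinases, Emilin1 (0.92), an elastic fibre glycoprotein, Angpt2 (0.92), a ligand of the Tie2 receptor, Serping1 (0.92), the C1 inhibitor, Bmp7 (0.92), a bone morphogenetic protein, and Tgfbr3 (0.92), a TGF-β co-receptor. Fmod alone of these was on a list used here, and 8 of the 10 were also among the 10 highest without the mouse labelled Ts65Dn replicate 3. Timp3 was the most abundant, at 68.9 CPM in the HIP and 71.8 CPM in the EC.

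Lists of markers were placed on the same measure. Of 21 other meningeal and arachnoid genes that could be ranked, 15 had an r over 0.7, with a median of 0.83, among them Fmod, Slc22a6 (0.89), Ptgds (0.89) and Bgn (biglycan, 0.89). Dpp4 (0.19) and Ccn3 (0.16) were the lowest of the list. All 3 border macrophage markers ranked were over 0.7: Mrc1 (0.87), F13a1 (0.76) and Cd163 (0.71). The other proteoglycans had a median of 0.72 and the other collagens 0.63. Within the list for collagen making, Pcolce (0.92), Serpinh1 (0.85), the collagen chaperone, and Crtap (0.78) were over 0.7, while the list's median was 0.32. Slc13a3 (0.78) and Slc6a12 (0.77), a betaine and GABA transporter, were over 0.7 among the transporter relatives, and so was Crabp2 (0.85), which binds retinoic acid inside cells, in the retinoid list. Endothelial (0.34), mural (0.50), erythroid (0.24), striatal (0.10), hippocampal (0.10) and cortical (-0.30) medians were lower. Summed markers of brain regions moved with the 10 genes within a region: over the EC libraries the log2 hippocampal sum had an r of 0.83 with the log2 sum of the 10 (rho 0.74) and the cortical sum one of -0.68 (rho -0.60), and over the HIP libraries the striatal sum had 0.69 (rho 0.67). The hippocampal and cortical sums had 0.06 and -0.25 over the HIP libraries, and the striatal sum -0.32 over the EC libraries. The part of the dissection in the levels of the 10 genes was not tested.

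The choroid plexus markers followed the 10 genes in the HIP and less so in the EC. The 4 that could be ranked, the triplicated Clic6 among them, had a median r of 0.83 over HIP libraries and 0.33 over EC libraries. The log2 sum of all 13 markers had an r of 0.84 with the log2 sum of the 10 genes over 12 HIP libraries (rho 0.92) and of 0.46 in the EC (rho 0.38). Gene by gene in the HIP, r was highest for Slc13a4 (0.92), Lum (0.92), Ogn (0.83) and Col1a2 (0.81), and lowest for Aldh1a2 (0.47), Col1a1 (0.53) and Slc6a13 (0.53). By rho the order at the top differed, with Slc13a4 (0.97), Igf2 (0.94), Col1a2 (0.92) and Dcn (0.92) ahead of Lum (0.84) and Ogn (0.83). The summed border macrophage markers had an r with the sum of the 10 of 0.81 over HIP libraries and 0.95 over EC libraries, while the other meningeal genes had 0.89 and 0.97. These lists differ in level: the choroid plexus sum spans 65.6 to 5474 CPM over the HIP libraries and the macrophage sum 4.88 to 17.8 CPM.

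**Figure D5:**
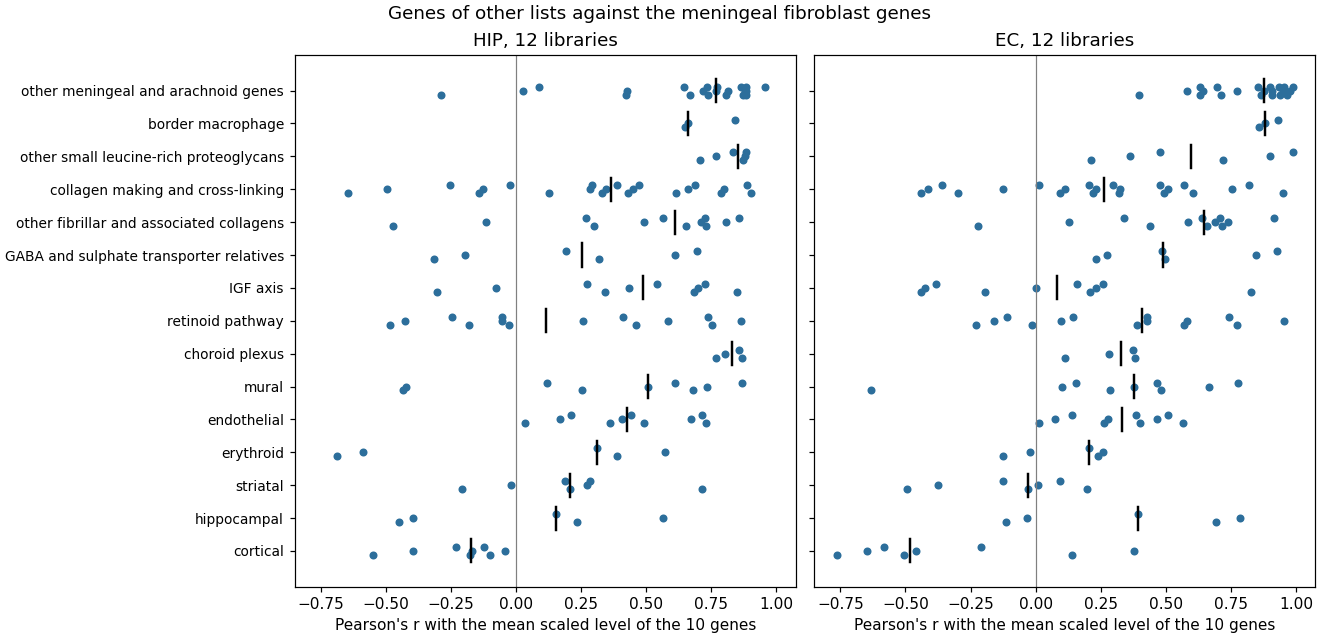
Pearson's r of each listed gene's log2 CPM with the mean scaled level of the 10 genes, over 12 HIP libraries (left) and 12 EC libraries (right). Points are genes with a mean of at least 1 CPM in both regions and bars are list medians. Other meningeal genes have medians of 0.77 (HIP) and 0.88 (EC), and choroid plexus genes 0.83 and 0.33.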

How the data were processed

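The authors aligned single-end reads to GRCm38 (mm10 per the labels) with Hisat2 and deposited raw HTSeq counts per gene, not normalized. bcl2fastq 2.17.1.14 is named in the submitters' processing notes. The labels name a stranded mRNA kit, whereas the methods name one for total RNA that depletes ribosomal RNA; which was used is not settled here. The authors' tables of their own comparisons hold DESeq2 means, log2 fold changes and p-values, and FCROS ratios, scores and p-values, and were not used here. The Ts66Yah libraries were not analysed here.

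Genes were matched to GENCODE vM21, which held 99.6% of them. edgeR 4.0.16 (R 4.3.3; filterByExpr, TMM, quasi-likelihood test, Benjamini-Hochberg adjustment over all genes tested, call at 0.05) was fitted to 6 against 6 libraries for genotype within a region, and with a term for each mouse for region and interaction. The labels give the mouse, and both regions of a mouse deviated together, with an r of 0.21 to 0.41 in wt and 0.14 to 0.42 in Ts65Dn over 15004 genes. Log2 CPM had a prior count of 2. SE is the fold change over the root of the F statistic. The alternatives were DESeq2 1.42.0, its size factors in edgeR, other filters, an adjusted p under 0.1, other blocks, and leaving out each mouse. When tested on simulated data, the genotype fit in the HIP (17355 genes) found 50 of 100 genes with a 1.5-fold change. It found 81 of 100 with a 2-fold change, and 65 and 85 in the EC (17049 genes). These shares are not for the genes described here, which varied more between mice than most. Their SD of log2 CPM within a genotype ran from 0.42 (Slc6a13) to 1.08 (Slc13a4) in the HIP, against a median of 0.169 over all genes tested. In the EC it ran from 0.338 (Lum) to 0.992 (Slc13a4), against 0.173. How often such changes would be found in these genes was not tested.

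The 10 genes, the lists and the tests were chosen with earlier results of these data known. All 10 genes were described in each comparison, of each list up to 4 called genes with the largest fold change, and the 10 genes most like the members. Some list genes are not reported here by name. Ptgds, Fmod and other list genes that were not called, and those named for their r, were chosen after their values were seen. Correlations are given without a test.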

Additional observations from a re-analysis of the deposited data

Results flagged for a closer look

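In 2 of the 40 groups of 6 libraries, 1 per gene, region and genotype, a library stood apart from the others by Dixon's criterion, which chance meets in about 1 group in 20. Lum in the wt EC had 6.78 CPM in replicate 2, with the other 5 libraries between 3.38 and 3.89 CPM. Igf2 in the wt HIP had 3.82 CPM in replicate 2, with the others between 0.476 and 1.20 CPM. Both libraries come from the wt replicate 2 mouse, in which 7 of the 10 genes were the highest of the wt HIP and 9 the highest of the wt EC.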

How the results depend on the processing

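Over the alternatives, 0 of the 10 genes were called between genotypes in the EC and in the interaction. In the HIP 1 was called by DESeq2 alone, where DESeq2 called 3.81% of all genes, with 0 over the fits that left out a mouse. For HIP against EC in wt, 2 were called by DESeq2, 8 with no filter on low counts, 3 at an adjusted p under 0.1, and 1 to 5 with a mouse left out. Of all genes, DESeq2 called 53.5%, the fit with no filter 32.5% and the fits with a mouse left out 56.2% to 59.2%. The share with no filter is over 34373 genes, those of low count among them. At an adjusted p under 0.1, 11605 of 17196 genes were called. In Ts65Dn, 2 were called by DESeq2 (Lum and Igf2), 3 with at least 10 counts in every library, 5 with no filter, 1 without the term for the mouse (no block), and 1 to 7 with a mouse left out. The shares of all genes called in these Ts65Dn fits were 47.2%, 54.1%, 27.6%, 48.2% and 43.7% to 50.8%, in the same order. Here the share with no filter is over 34473 genes. Replicate numbers do not pair mice across genotypes: only 2 of 6 same-numbered HIP pairs and 1 of 6 EC pairs had an r over 0.1, and with the number as a block 0 of the 10 genes were called in either region. With that block the log2 fold change turned to -0.021 for Ogn in the HIP, and to 0.0056 for Col1a2 and 0.0034 for Slc6a13 in the EC. Without the term for the mouse, Col3a1 turned to 0.066 for HIP against EC in Ts65Dn. Other values near 0 also changed sign. Ogn in the HIP was -0.0024 in DESeq2 and Dcn in the EC 0.0053 with all 24 libraries in 1 fit. Col1a2 for HIP against EC in Ts65Dn was -0.0016 with DESeq2 size factors, -0.015 in DESeq2 and -0.00020 with no filter. With a mouse left out, the genotype fold changes ran from -0.14 to 0.20 (Lum) and from -0.15 to 0.17 (Ogn) in the HIP. In the EC they ran from -0.11 to 0.46 (Col1a1), -0.21 to 0.27 (Col1a2), -0.44 to 0.12 (Col3a1), -0.10 to 0.11 (Dcn), -0.33 to 0.33 (Slc6a13) and -0.22 to 0.62 (Slc13a4). For HIP against EC, Dcn ran from -0.18 to 0.035 in wt, and Col1a2 from -0.12 to 0.28, Col3a1 from -0.24 to 0.25 and Aldh1a2 from -0.41 to 0.072 in Ts65Dn. The interaction ran from -0.012 to 0.63 for Slc6a13 and from -0.073 to 0.60 for Aldh1a2. Of the 10 genes most like the members, 4 were among the 10 highest over HIP libraries alone and 6 over EC libraries alone. The causes were not tested. Summed levels moved by less than 1 SD under each alternative.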
